A study of Mus musculus with 4 samples.

Results

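The genes that encode the proteasome were examined for chromatin that was more open in hearts without SMYD1. Members were the protein-coding mouse genes of the GENCODE M21 annotation whose symbol begins with Psma, Psmb, Psmc, Psmd, Psme, Psmf or Psmg followed by a number, which gave 50 of 21938 protein-coding genes. They comprised 31 constitutive subunits, 7 immune subunits or immune-inducible activators, 7 assembly chaperones and 5 other genes. Chromatin was measured in embryonic mouse hearts at E9.5 (embryonic day 9.5) by ATAC-seq, in which the transposase Tn5 inserts sequencing adapters into accessible DNA. The hearts were WT or *Smyd1-KO*, the latter carrying a mutated allele of *Smyd1*, a muscle-restricted histone methyltransferase, on both chromosomes in every cell of the embryo. There were 2 libraries per genotype and 4 in all, each made from 40000 viable cells of 4 pooled hearts. *Smyd1-KO* embryos die soon after this stage, which limits these hearts as a model to the time shortly before death. Whole hearts hold several cell types, and a larger share of cells with an open site cannot be told apart from a site that was more open in each cell.

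The deposited data were 2 lists of peaks. One held 25745 peaks whose tags in *Smyd1-KO* hearts were at least 2-fold those in WT, called gained peaks here, and the other held 106 peaks higher in WT hearts. Each gained peak carried a score in tags, the unit in which the peak caller counts reads, for the combined *Smyd1-KO* libraries. The scores run in steps of 0.5 tag and are therefore not whole read counts. The median score of all gained peaks was 180.5 tags. A score says how many tags a gained peak held in *Smyd1-KO* hearts, not by how much it exceeded WT. Because the libraries of a genotype had been combined, replicate error is not known for any value and the genotypes were not tested against each other. The intervals given are 95% Poisson intervals that take 1 tag as 1 count. They are approximate and cover counting error only. With 2 counts per tag, a choice made after seeing the data, they were narrower. Each statement below on overlapping intervals then stayed as given, except those marked as made at 1 count per tag, which were not checked. Highest and lowest name the order of the scores alone, and intervals of neighbouring ranks can overlap. The stated depth was 100000000 reads per sample, and the depth reached by each library cannot be read from the lists. A gene counted as gained when a gained peak lay within 3 kb of one of its annotated transcription start sites (TSSs). The start of its principal transcript is called the lead TSS. A gene without a gained peak need not have had closed chromatin, since a promoter that was open in both genotypes at less than a 2-fold difference is not in the lists.

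The proteasome degrades proteins that have been tagged with ubiquitin. Its 20S core is a barrel of alpha rings, which gate the entrance, and beta rings, of which some subunits cut peptide bonds. The 19S regulatory particle caps the barrel, where non-ATPase subunits bind and remove ubiquitin and a ring of ATPases unfolds the substrate and threads it inside. In cells exposed to interferon the catalytic beta subunits are replaced by immune counterparts, and the PA28 activator can take the place of the 19S cap. Dedicated chaperones, which are not part of the finished particle, assemble both complexes. Every cell needs the constitutive subunits, and heart muscle relies on them to turn over its contractile proteins.

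The promoters of the member with the highest score in each main role show how varied these starts were, and those of *Psma6* and *Psmd2*, picked after their values were seen, stand for members without a gained peak. Each sequence below comes from the GRCm38 genome, runs 5′ to 3′ on the gene's strand, is 150 bases long and holds no annotated untranslated base. All end at the base before the lead TSS except that of *Psme2*, which ends 27 bases before it because longer transcripts of the gene begin upstream. Capitals mark matches to any of 10 short strings, searched on both strands, that are named further on. The matches counted in this paragraph are those that lie whole in the printed stretch. The wider window searched further on holds more for some of these genes. The alpha-ring gene *Psma5* (chr3:108256776-108256925, plus strand) held no match in the stretch shown. The beta-ring gene *Psmb3* (chr11:97703249-97703398, plus strand) held a pair of NF-Y strings and an IRF string. The ATPase gene *Psmc4* (chr7:28050102-28050251, minus strand) held a pair of SP1 strings, and the non-ATPase gene *Psmd8* (chr7:29180702-29180851, minus strand), the PA28 gene *Psme2* (chr14:55591114-55591263, minus strand) and the chaperone gene *Psmd5* (chr2:34870963-34871112, minus strand) held 1 SP1 string each. The promoters of *Psma6* (chr12:55398625-55398774, plus strand) and *Psmd2* (chr16:20651502-20651651, plus strand) both held an ETS string that began 82 bases before the lead TSS, and *Psmd2* held another on the opposite strand and 1 SP1 string.
Psma5: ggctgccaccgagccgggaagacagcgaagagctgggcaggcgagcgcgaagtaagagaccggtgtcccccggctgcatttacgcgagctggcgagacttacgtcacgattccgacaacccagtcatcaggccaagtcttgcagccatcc
Psmb3: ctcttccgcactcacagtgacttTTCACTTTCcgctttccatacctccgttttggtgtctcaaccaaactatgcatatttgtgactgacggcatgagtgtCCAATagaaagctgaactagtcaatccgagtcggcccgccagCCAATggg
Psmc4: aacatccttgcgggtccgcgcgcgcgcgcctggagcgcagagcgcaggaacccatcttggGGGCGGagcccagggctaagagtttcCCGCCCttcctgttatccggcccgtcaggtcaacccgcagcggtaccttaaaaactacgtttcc
Psmd8: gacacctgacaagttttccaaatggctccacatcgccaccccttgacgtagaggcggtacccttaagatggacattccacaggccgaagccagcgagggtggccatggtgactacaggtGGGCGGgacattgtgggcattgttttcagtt
Psme2: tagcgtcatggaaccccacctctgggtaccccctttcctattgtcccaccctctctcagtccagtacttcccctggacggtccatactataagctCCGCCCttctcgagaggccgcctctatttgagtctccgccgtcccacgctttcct
Psmd5: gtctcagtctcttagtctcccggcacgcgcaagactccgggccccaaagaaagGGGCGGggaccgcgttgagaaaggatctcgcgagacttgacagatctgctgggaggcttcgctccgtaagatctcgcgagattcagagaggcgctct
Psma6: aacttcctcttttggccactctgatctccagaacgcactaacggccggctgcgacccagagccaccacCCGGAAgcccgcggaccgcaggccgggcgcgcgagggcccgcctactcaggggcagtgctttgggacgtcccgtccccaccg
Psmd2: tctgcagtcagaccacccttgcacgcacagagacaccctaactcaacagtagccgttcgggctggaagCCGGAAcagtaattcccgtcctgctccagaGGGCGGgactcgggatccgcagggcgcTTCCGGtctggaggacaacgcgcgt

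Of the 50 members, 38 were gained and 12 were not. This is 76.0% of the members, beside 51.2% of all protein-coding genes. Proteasome genes start mostly in CpG-rich DNA, and 40 of the 50 had a CpG-rich lead TSS, meaning a CpG observed to expected ratio of at least 0.6 and a GC content of at least 50% over 500 bases on either side. Among those 40 members 32 were gained, or 80.0%, beside 78.8% of the 10053 other protein-coding genes with such a start. Among the 10 members without a CpG-rich start 6 were gained, or 60.0%, beside 27.7% of the 11835 other genes without one. When each member was given the share of the non-member genes in its own bin, out of 10 equal bins of the CpG ratio, the members' share came to 71.4%, or 35.7 genes against the 38 observed. With bins of GC content in place of the CpG ratio it came to 60.25%. The members' share thus lay above that of the coding genes as a whole, and its distance from genes with like starts depended on whether likeness was set by CpG ratio or by GC content. The plot by bin of CpG ratio sets the members beside the other genes. In the sixth and eighth bins 9 of 10 members were gained, beside 68.8% and 78.7% of other genes, whereas in the seventh bin 5 of 9 were, beside 75.4%.

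**Figure D1:**
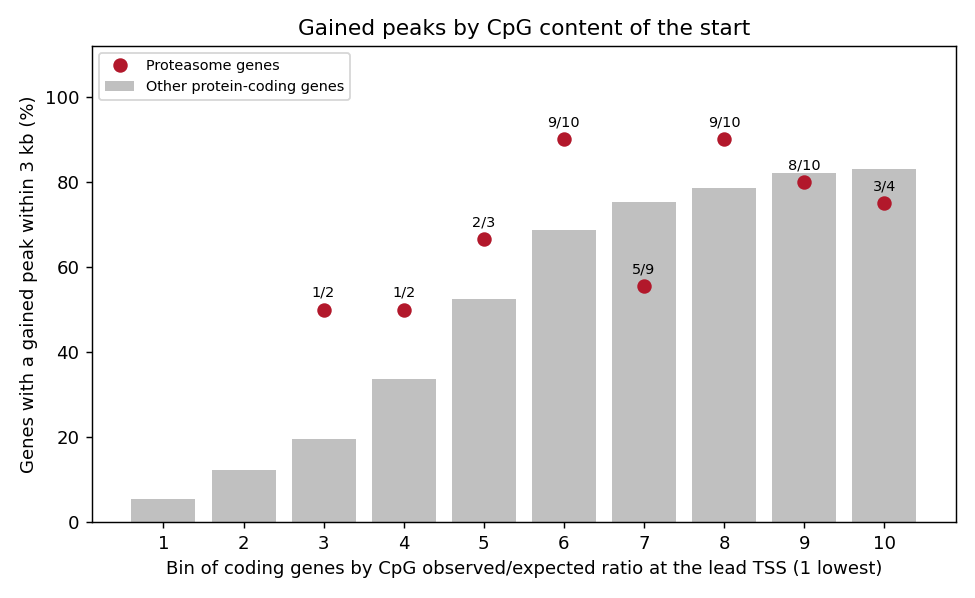
Share of genes with a gained peak within 3 kb of a TSS (y axis, %) by bin of protein-coding genes, 10 equal bins ordered by the CpG observed to expected ratio at the lead TSS (x axis, lowest first). Bars are protein-coding genes outside the family and points are proteasome genes with the number gained over the number in that bin; the bars climb from 5.39% to 83.1%, and the points lie above the bar in the third to sixth and eighth bins and below it in the seventh, ninth and last.

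The roles differed in how many members were gained. Of the constitutive subunits 25 of 31 were gained, or 80.6%, beside 77.2% at the shares of their CpG bins. All 7 assembly chaperones were gained, beside 73.2%, which for 7 genes is 5.13. Of the immune group 4 of 7 were gained, or 57.1%, beside 42.4%, and only 1 of these 7 genes had a CpG-rich start. Of the 5 other genes 2 were gained, or 40.0%, beside 73.5%. With groups of 5 to 7 genes these shares rest on few genes. No interval is given for them, because each role is a chosen set of genes and genes are not replicates. Within 1 kb of the lead TSS alone, a stricter reading, 34 members were gained beside 44.0% of all protein-coding genes. Within 10 kb of any TSS 40 members were gained beside 59.6%. The difference from 38 to 40 came from *Psmb11* and *Psmc1*.

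Where a member was gained, its strongest peak was usually a large one for this list but ordinary for a promoter. The strongest peak of the 38 gained members had a median score of 447.5 tags, with quartiles of 325 and 570.8. A peak at or above the median of the list was found at 37 of the 38. Of all protein-coding genes 45.41% had such a peak, beside 51.22% with a gained peak of any score, so most gained genes passed this mark. Over the other gained protein-coding genes the median was 460.5 tags, and over those with a CpG-rich start it was 518.5. The members ranged from 154.5 tags at *Psmg3* to 896.5 at *Psmb3*, while other genes ranged from 31.5 to 2050. The constitutive subunits had a median of 470.5 tags, the immune group 386.75 and the assembly chaperones 366, and the ranges of these 3 groups overlapped.

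**Figure D2:**
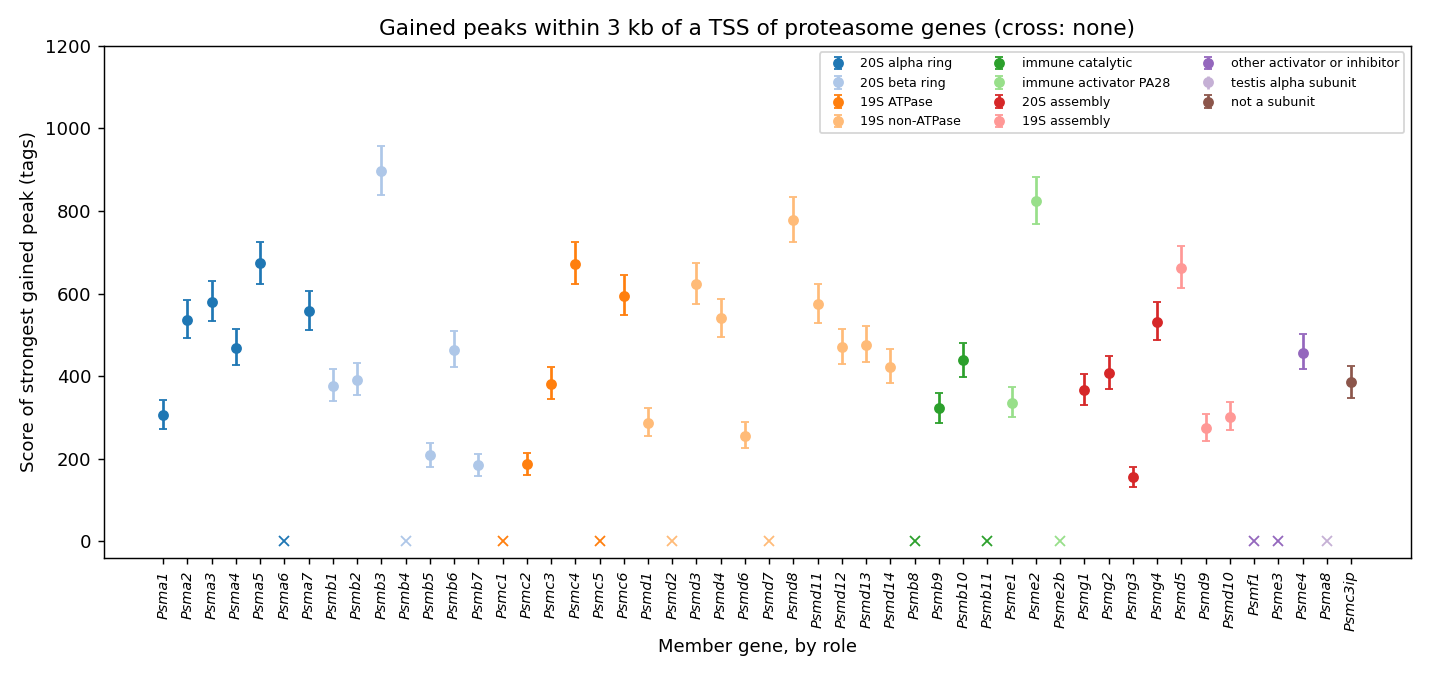
Score of the strongest gained peak within 3 kb of a TSS (y axis, tags) for each of the 50 members (x axis, grouped and coloured by role). Points are single pooled values, bars are 95% Poisson intervals and crosses at the foot mark the 12 members without a gained peak; scores run from 154.5 tags at *Psmg3* to 896.5 at *Psmb3*, and all 7 assembly chaperones have a point.

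The alpha ring forms the gate of the core and is assembled first. Of its 7 genes 6 were gained, all within 1 kb of the lead TSS. *Psma5* had the highest score of the ring, 673 tags (623.1 to 725.8), in a peak at chr3:108256937-108257085 that began 11 bp downstream of the lead TSS in its untranslated first exon. The peak also covered the start of the antisense gene *1700010K24Rik*, 59 bp away on the other strand. *Psma1* had the lowest, 305 tags (271.7 to 341.2), in a peak at chr7:114276109-114276257 that covered its lead TSS. Between them lay *Psma4* with 468.5 tags, *Psma2* with 536.5, *Psma7* with 558 and *Psma3* with 580. The intervals of the last 3 overlapped, so their order is within counting error. At 1 count per tag the interval of *Psma4*, 427.0 to 512.9, also reached those of *Psma2* and *Psma7*. That of *Psma3*, 533.8 to 629.2, reached that of *Psma5*, so the highest place in the ring is not settled either. The peak of *Psma2* covered a start of *Mrpl32*, a mitochondrial ribosome gene that is read in the opposite direction from 75 bp upstream. *Psma7* had another peak of 329 tags 587 bp upstream, nearer to *Ss18l1*, whose start lies 76 bp from that of *Psma7*. *Psma6* was the exception in the ring. Its nearest gained peak held 552.5 tags and lay 93256 bp from the lead TSS. *Psma8*, which replaces *Psma7* in male germ cells, had none either, and its nearest gained peak, of 391.5 tags, lay 23040 bp away.

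The beta ring holds the cutting sites. Of its 7 genes 6 were gained, and the highest score of the family stood here. At 1 count per tag the interval of that score overlapped that of *Psme2*, 768.7 to 882.2. *Psmb3*, a structural subunit, had 896.5 tags (838.8 to 957.2) in a peak at chr11:97703116-97703264 that ended 135 bp upstream of the lead TSS. Its last 16 bases are the first 16 of the sequence printed above. *Psmb2* had 391 tags and *Psmb1* had 377, both structural subunits with the peak across the lead TSS. *Psmb1* had another peak of 351 tags across a second start 1448 bp upstream, where *Tbp*, which encodes the TATA-binding protein, also starts. *Psmb4*, which closes the half-barrel during assembly, had no gained peak within 10 kb. Its nearest lay 37409 bp away and held 62.5 tags.

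The catalytic subunits and their immune counterparts form 3 natural pairs. The chymotrypsin-like subunit *Psmb5* had a peak of 208 tags (180.7 to 238.3) at chr14:54617923-54618071, over the lead TSS and the first coding bases, and 33.3% of the 36-base words in that peak recur elsewhere in the genome. It was the only member peak with more than 10% recurring words, and none of its words occurred in the annotated pseudogene *Psmb5-ps*. Its counterpart *Psmb8* had no gained peak, and its nearest one lay 10350 bp away. The caspase-like subunit *Psmb6* had 464 tags 20 bp upstream of the lead TSS, and its counterpart *Psmb9* had 321.5 (287.3 to 358.6) in a peak at chr17:34187292-34187440, 324 bp downstream. The trypsin-like subunit *Psmb7* had 183.5 tags (157.9 to 212.1) at chr2:38646034-38646182, 1947 bp upstream and outside 1 kb. This was the lowest score of the ring, though at 1 count per tag its interval overlapped that of *Psmb5*. The counterpart of *Psmb7*, *Psmb10*, had 438 (397.9 to 481.0) at chr8:105936972-105937120, 1324 bp downstream in coding sequence, where another annotated transcript of *Psmb10* starts. Neither set was uniformly higher. The constitutive partner had the higher score in the *Psmb6* pair and the immune partner in the *Psmb7* pair, neither with overlapping intervals, and in the *Psmb5* pair only the constitutive gene was gained. *Psmb11*, the thymus-specific catalytic subunit, had no gained peak within 3 kb, and the peak 7239 bp from its lead TSS was that of *Psmb5*.

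The immune genes *Psmb8* and *Psmb9* lie beside the peptide transporter genes *Tap1* and *Tap2* in the major histocompatibility complex. *Tap1* starts 30 bp from *Psmb9* on the other strand, and the single peak of 321.5 tags counted for both, so the list cannot assign it to one of them. The PA28 activator is a ring made of the products of *Psme1* and *Psme2*. *Psme2* had the second highest score of the family, 824 tags (768.7 to 882.2), in a peak at chr14:55590993-55591141 over the lead TSS, first coding exon and upstream sequence. A second peak of 818 tags lay 518 bp upstream and covered a start of *Rnf31*, a ubiquitin ligase gene whose start is 621 bp from that of *Psme2*. The scores of these neighbouring peaks overlapped within counting error. At 1 count per tag the interval of the stronger one also overlapped those of *Psmb3* (838.8 to 957.2) and *Psmd8* (723.8 to 834.1). The second place of *Psme2* in the family is thus within counting error. *Psme1* had 335.5 tags (300.6 to 373.4) over the lead TSS at chr14:55578326-55578474, and a weaker peak of 164.5 tags 2736 bp upstream at a start of *Fitm1*. *Psme2b*, a retrogene copy of *Psme2*, had none, with 111698 bp to the nearest, the farthest of any member.

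The 19S ATPases unfold the substrate. Of the 6 genes 4 were gained, 3 of them within 1 kb of the lead TSS. *Psmc4* had 672 tags (622.1 to 724.8) in a peak at chr7:28050082-28050230 that covered the lead TSS and 129 of the 150 bases printed above, both SP1 strings among them. *Psmc6* had 594.5 and *Psmc3* 381.5, each over the lead TSS. *Psmc3* had another peak of 307.5 tags in an intron 7055 bp downstream, within 3 kb of a later start. *Psmc2* had the lowest, 186 tags (160.2 to 214.7), at chr5:21786658-21786806, 1375 bp downstream of its lead TSS. The shared start of *Psmc2* and *Dnajc2*, 32 bp apart, was not covered. *Psmc1* and *Psmc5* had no gained peak within 3 kb. The nearest lay 9574 bp from *Psmc1* with 79.5 tags and 16687 bp from *Psmc5* with 917 tags.

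Of the 11 non-ATPase genes of the 19S particle 9 were gained, all within 1 kb of the lead TSS. *Psmd8*, a lid subunit, had 777.5 tags (723.8 to 834.1) in a peak at chr7:29180552-29180700 that began 1 bp inside the gene. *Psmd6*, another lid subunit, had the lowest, 256 tags (225.6 to 289.4), at chr14:14120822-14120970, 14 bp inside the gene. At 1 count per tag its interval overlapped that of *Psmd1*. The deubiquitinase gene *Psmd14*, whose product removes the ubiquitin chain, had 423 tags over the lead TSS, and the ubiquitin receptor gene *Psmd4* had 540. The scaffold gene *Psmd1* had 286.5. The lid genes *Psmd12*, *Psmd13*, *Psmd11* and *Psmd3* had 470.5, 475.5, 575 and 622.5. *Psmd13* had another peak of 382 tags, and both of its peaks covered a start of *Sirt3*, which encodes a mitochondrial deacetylase and starts 99 bp away on the other strand. The exceptions were *Psmd2*, which encodes the other large scaffold, and *Psmd7*, the partner of the deubiquitinase. Their nearest gained peaks lay 21034 bp away with 547 tags and 32795 bp away with 55.5 tags. Of the deubiquitinase and its partner, and of the large scaffolds, 1 gene was thus gained and the other was not.

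The 4 chaperones of the core act as pairs, and all were gained. *Psmg1* had 366 tags and its partner *Psmg2* had 407, with overlapping intervals. The peak of *Psmg2* lay 231 bp upstream at a start of *Cep76*, which starts 263 bp away. *Psmg4* had 531.5 tags (487.3 to 578.7) at chr13:34163003-34163151, 39 bp downstream, and its partner *Psmg3* had 154.5 (131.1 to 180.9) at chr5:139826815-139826963 over the lead TSS, the lowest strongest peak of the family. At 1 count per tag the interval of *Psmg3* overlapped those of *Psmb7* and *Psmc2*. The 3 chaperones of the 19S base were gained as well. *Psmd5* had 663 tags (613.5 to 715.4) in a peak at chr2:34870884-34871032 over the lead TSS, and *Psmd10*, also known as gankyrin, had 302, 42 bp upstream, facing *Atg4a*. *Psmd9* had 273 tags (241.6 to 307.4) at chr5:123171701-123171849, but that peak lay 56341 bp from the lead TSS, 2288 bp from another annotated start, and *Hpd* was the nearest gene. Without *Psmd9*, 6 of the 7 chaperones had a gained peak within 1 kb of the lead TSS.

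Among the remaining genes the activator gene *Psme4*, whose product caps proteasomes in the nucleus, had 457 tags (416.1 to 500.9) in a peak centred on the lead TSS at chr11:30771652-30771800. *Psme3*, the nuclear relative of PA28, and *Psmf1*, a proteasome inhibitor, had none, with 13895 and 38815 bp to the nearest. *Psmc3ip* is not a proteasome gene but a meiotic recombination factor that carries a matching symbol. It had 385 tags over the lead TSS, and leaving it out gave 37 of 49.

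The position of the gained peaks was taken from the lead TSS. Over the 37 members with a peak within 3 kb of the lead TSS, 21 had a peak that covered it, or 56.8%, beside 42.4% of other protein-coding genes with such a peak. Within 1 kb the shares were 91.9% and 93.0%. Of the 42 peaks 22 had their centre upstream and 19 downstream of the lead TSS. The upstream share was 52.4%, beside 57.8% of the peaks of other genes. More than one peak was found at 5 of the 37 members, or 13.5%, beside 14.6%. The shares in this paragraph do not take CpG content into account.

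**Figure D3:**
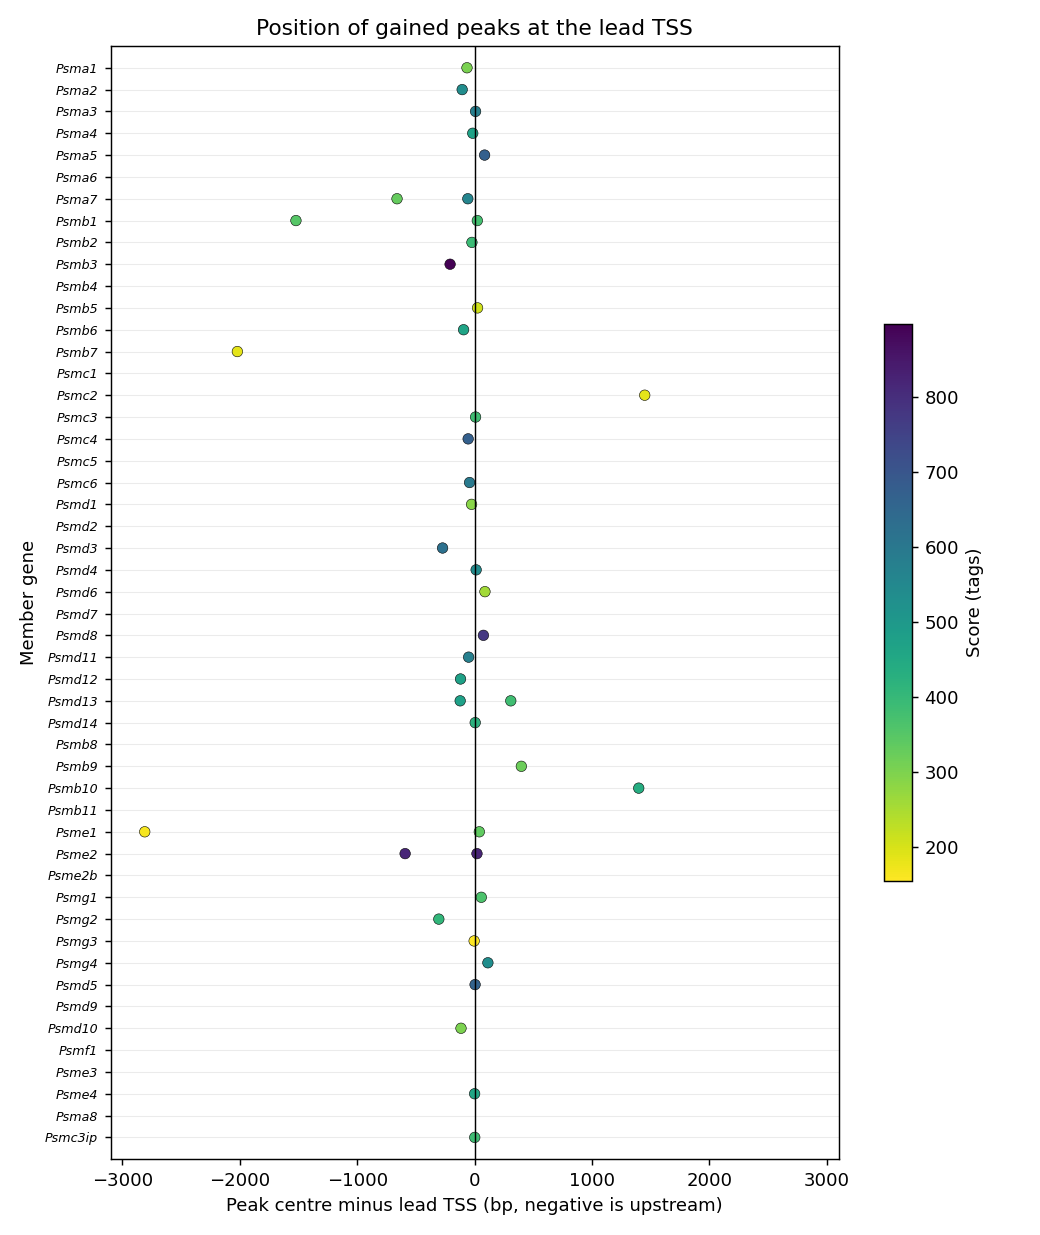
Distance of the centre of each gained peak from the lead TSS (x axis, bp, upstream negative) for the 50 members (y axis, by role), with the score in tags as colour. Rows without a point had no gained peak within 3 kb of the lead TSS, *Psmd9* among them; most points lie on or beside the line at the start, and the only points of *Psmb7*, *Psmc2* and *Psmb10* and the second points of *Psmb1* and *Psme1* stand more than 1 kb from it.

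Some proteasome genes start close to a neighbour on the other strand. A start on the opposite strand within 1 kb was found at 13 members, or 26.0%, beside 18.9% of other protein-coding genes. Of these 13 members 12 were gained, or 92.3%, against 26 of the 37 others, or 70.3%. Outside the family 76.6% of genes with such a neighbour and 45.2% of genes without one were gained. None of these 4 shares takes CpG content into account. The exception was *Psmc5*, which starts 75 bp from *Ftsj3*, a ribosome assembly gene. Of the 44 pairs of a member and a gained peak, the member held the nearest annotated start in 35 and another gene did in 9. Counting each peak only for its nearest gene left 33 members gained, the losses being *Psma2*, *Psma5*, *Psmd13*, *Psmd9* and *Psmg2*.

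Promoters were then searched, from 250 bases before to 50 after the lead TSS, for strings recognised by known regulators. The ETS string CCGGAA, bound by ETS factors such as GABPA, was in the promoters of 24 members, or 48.0%, beside 18.1% of all protein-coding genes and 29.4% of other genes with a CpG-rich start. It was found in 14 of the 38 gained members, or 36.8%, and in 10 of the 12 others, or 83.3%. Those 10 were *Psma6*, *Psma8*, *Psmb4*, *Psmc1*, *Psmc5*, *Psmd2*, *Psmd7*, *Psme2b*, *Psme3* and *Psmf1*, so that every constitutive subunit without a gained peak held the string. Read the other way, 58.3% of the members with the string and 92.3% of those without it were gained. Over all other protein-coding genes the shares lay the other way round, at 73.4% with the string and 46.3% without it. Among the 40 members with a CpG-rich start 13 of 21 with the string and 19 of 19 without it were gained, beside 81.5% and 77.7% of other genes with such a start. The match in *Psmd2* began 82 bases upstream, as printed above, and that in *Psmb4* lay 6 bases inside the gene. The string was also in the promoters of gained members such as *Psmc6*, at 64 bases upstream, and *Psma5*, where it began 154 bases upstream, just outside the stretch printed. This split was seen among 10 strings over few members and was not tested.

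**Figure D4:**
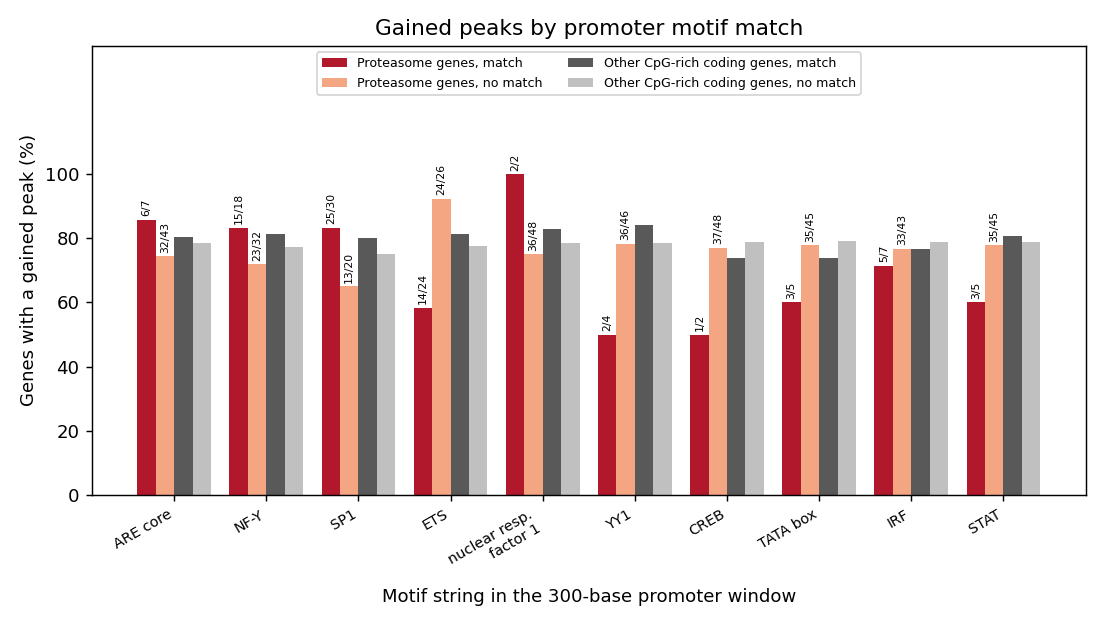
Share of genes with a gained peak (y axis, %) among promoters with and without each of 10 motif strings (x axis), for proteasome genes (red, with the number gained over the number of genes) and for other protein-coding genes with a CpG-rich lead TSS (grey). For the ETS string the members with a match stand at 58.3% and those without at 92.3%, while the grey bars stand at 81.5% and 77.7%. The red bars hold all 50 members, of which 10 have no CpG-rich start.

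The other strings separated the members less or were rare. The core of the antioxidant response element, TGACNNNGC, through which NFE2L1 and NFE2L2 raise proteasome genes, was in 7 members, or 14.0%, beside 12.8% of all protein-coding genes and 14.9% of other genes with a CpG-rich start. Of these 7, namely *Psmb2*, *Psmb5*, *Psmb6*, *Psmc6*, *Psmd7*, *Psmd9* and *Psmd12*, all but *Psmd7* were gained. This is 85.7%, beside 74.4% of the members without the string and 56.8% of all other protein-coding genes with it. Among genes with the string and a CpG-rich start 83.3% of members and 80.4% of other genes were gained. The NF-Y string CCAAT was in 18 of the 50 members, beside 38.6% of all protein-coding genes and 37.2% of other genes with a CpG-rich start, and the SP1 string GGGCGG was in 60.0% beside 45.4%, or 73.5% of other genes with a CpG-rich start. Members with the SP1 string were gained in 83.3% of cases and those without in 65.0%, beside 72.3% and 33.6% of all other protein-coding genes. Among members with a CpG-rich start the shares were 87.0% and 70.6%, beside 80.2% and 75.0% of other genes with such a start. The YY1 string AAGATGGCG was in 4 members, *Psmb6*, *Psmc5*, *Psmd7* and *Psmd11*, or 8.0% beside 1.86% of all protein-coding genes and 3.42% of other genes with a CpG-rich start. The IRF string GAAANNGAA was in 14.0% beside 8.46% and 6.01%, with none in the 7 immune members, and the STAT string TTCNNNGAA was in 10.0% beside 8.22% and 5.4%, the second value being again that of other genes with a CpG-rich start. The nuclear respiratory factor 1 string CGCATGCG was in 4.0% beside 2.66% and 4.23%, and the CREB string TGACGTCA in 4.0% beside 2.48% and 3.75%. The TATA box TATAAA was in 10.0%, below the 12.6% of all protein-coding genes and above the 5.66% of other genes with a CpG-rich start. Matches to different strings can overlap, and a match describes letters in the window, not a bound factor.

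Genes that work with the proteasome were counted in the same way. Of 11 partners listed outside the symbol rule, *Paaf1* was not found under that symbol in the annotation, and 9 of the other 10 were gained, led by the ubiquitin receptor gene *Adrm1* with 1139 tags and the deubiquitinase gene *Uchl5* with 907. The core chaperone gene *Pomp* had 391.5, and *Sem1*, which encodes the smallest subunit of the lid, was not gained. All 7 regulators of proteasome genes were gained. *Nfe2l1* and *Nfe2l2*, the transcription factors that restore proteasome levels and answer oxidative stress, had 1161 and 1171 tags, above the highest member. *Ddi2* and *Ngly1*, which process NFE2L1 into its active form, had 417 and 689.5. Among genes for the activation of ubiquitin and its shuttles, the activating enzyme gene *Uba1* had 253.5 tags and the shuttle gene *Rad23b* had 1065.5. Of 12 antigen processing genes 7 were gained, among them *Tapbp* with 1147 tags and *B2m* with 322.5. The interferon regulators *Irf1*, *Irf8* and *Nlrc5*, the receptor gene *Ifngr1* and *Tap2* were not. The partners and regulators held 90.0% and 100.0% of genes gained, beside the 78.8% of genes with CpG-rich starts, and 51.2% of all protein-coding genes. The antigen processing list, in which 8 of 12 genes have a CpG-rich start, held 58.3%, between those 2 shares. The immune members, of which 1 of 7 has such a start, held 57.1%.

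No WT-enriched peak lay near a member. Within 3, 10 and 100 kb of a TSS the numbers of members with one were 0, 0 and 0, while 5, 17 and 152 of all protein-coding genes had one. With 106 such peaks in all, that list could place few near any set of 50 genes, 152 genes being 0.693% of the total. Markers of the cell types in the heart were read in the same list of gained peaks. Of 10 cardiomyocyte markers 9 were gained, *Nkx2-5* being the exception, against 1 of 6 endothelial, 3 of 6 epicardial and mesenchymal, 1 of 6 erythroid and 0 of 8 leukocyte markers. Most of these markers have no CpG-rich start, and the share gained was 27.7% of such genes and 51.2% of all protein-coding genes. These lists of differential peaks do not show how open a marker was in WT hearts, and the part of cell composition in the members' peaks was not tested.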

How the data were processed

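ATAC-seq reads of 2 libraries per genotype (WT and *Smyd1-KO*, E9.5 hearts) had been aligned by the authors to mm10 with BWA-MEM and peaks called with HOMER 4.10.3. The 2 lists used here hold peaks that passed a 2-fold and a Poisson p-value cutoff, and their deposited value is a signal, the tags that the authors' peak caller gave for each 149 bp peak over the combined libraries. All *Smyd1-KO* scores are multiples of 0.5 tag. The stated depth was 100000000 reads per sample. Scaling between genotypes, duplicate handling and Tn5 offset are not given in the sources used here. Replicate pools cannot be separated, so no test was made.

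Genes and TSSs came from GENCODE M21, and sequence from GRCm38, the same build as mm10. The lead TSS is that of the APPRIS principal transcript. Distances run from the nearer peak edge (0 if covered). Python 3.11.15, numpy 2.4.6, pandas 2.3.3, scipy 1.17.1 and matplotlib 3.10.9 were used, and the distance and word-count steps were tested on simulated data. Members, lists, strings and the rule for named genes (highest and lowest score per role and each member without a gained peak) were chosen with earlier results of these data known. Alternatives covered the window, TSS set, score minimum, nearest gene, repeated sequence and CpG measure. The count over the list of ubiquitin genes is not reported here.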

Additional observations from a re-analysis of the deposited data

How the results depend on the processing

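Counts of gained members stayed within 1.5 times their main value under every alternative run: 33 to 40 for all members, 22 to 26 for constitutive subunits, 3 to 5 for the immune group and 5 to 7 for the assembly chaperones. The share at CpG bins ranged from 60.25%, with bins of GC content instead, to 78.44%, within 10 kb, where 40 of the 50 members were gained. It was 63.75% with the nearest gene, where 33 members were gained, and 65.79% within 1 kb of the lead TSS, where 34 were. Each share is to be read beside the count of its own setting. The median strongest score ranged from 430.5 to 466.2 tags. The share of all protein-coding genes gained, 51.22%, became 48.14% within 1 kb and 59.58% within 10 kb of any TSS, 49.62% with starts of coding transcripts, 47.27% with the lead TSS, 45.41% with peaks at or above the median score, 49.27% with at least 100 tags, 45.56% with the nearest gene, 49.88% without peaks in repeated sequence and 43.96% within 1 kb of the lead TSS, an alternative chosen after seeing the data. Leaving out *Psma8*, *Psmb11* and *Psme2b*, which are made in germ cells or thymus or are a retrogene, gave 38 of 47 members. No paired analysis was possible because the libraries of a genotype had been combined in the lists, which also left no replicate to leave out. Depth limits which weak peaks could be listed, and peaks that did not differ were not analysed here.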
